A study of Homo sapiens with 7 samples.

Results

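The interferon-induced genes GBP1, GBP2, GBP3, GBP4, MX1, MX2, IFITM1, IFITM2, IFITM3 and BST2 were followed in RH30 cells with and without the Smac mimetic BV6. They were chosen by name, as guanylate-binding proteins, dynamin-like MX GTPases, IFITM membrane proteins and the virion tether BST2, and are 10 of the 57189 genes in the deposited count table. RH30 is a line of alveolar rhabdomyosarcoma, a soft-tissue tumor with features of developing skeletal muscle. RNA was sequenced from 4 samples of untreated cells and from 3 samples of cells kept with 5 µM BV6 for 24 h, and the labels give the genotype of all 7 as wt. The study's methods describe its RH30 cells as carrying GFP and luciferase. BV6 is a small molecule that binds inhibitor of apoptosis proteins and leads to the loss of cIAP1 and cIAP2. The titles of replicates 2, 3 and 4 carry a code that an untreated and a BV6 sample share (BC13, BC14 and BC25/27), whereas untreated replicate 1 (BC11) had no BV6 partner. No source used here says what the code means, and reading samples with the same code as pairs is an inference.

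These genes belong to the defense of a cell against viruses and intracellular bacteria, and many cell types raise them when interferons bind their receptors. The receptors act through JAK kinases and STAT factors. A complex that contains STAT2 and IRF9 binds the interferon-stimulated response element (ISRE), IRF1 binds closely related sites, and the gamma-activated site (GAS) is a further element of interferon-responsive promoters.

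The ISRE of the members' promoters is shown first because it is the DNA element through which this gene group is best known to respond. RefSeq promoters on GRCh38.p14, from 250 bases before to 50 bases after a start, were matched for 7 of the 10 members, and GBP2, IFITM2 and MX2 were not matched. With the ISRE taken as GAAA, any 2 bases and GAAA, searched on both strands, all 7 matched members held an ISRE, against 1195 of 27305 genes (4.38%) and 3.57% of the 35116 promoters. The 7 lines below show 1 ISRE of each member in capitals, read 5′ to 3′ on the genome strand that carries these letters, with its neighboring bases in lower case.
GBP1 (chr1:89065316-89065345, plus strand): agagtaatatGAAACTGAAAgtacttcgtt
GBP3 (chr1:89022845-89022874, plus strand): agagcctaatGAAACTGAAAgtacttcttt
GBP4 (chr1:89198927-89198956, plus strand): tgtgagaaccGAAATTGAAAggacatgcac
MX1 (chr21:41420559-41420588, plus strand): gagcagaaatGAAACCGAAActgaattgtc
IFITM1 (chr11:314024-314053, plus strand): acacttctgaGAAACTGAAAcgacagggga
IFITM3 (chr11:320876-320905, minus strand): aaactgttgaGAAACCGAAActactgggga
BST2 (chr19:17405741-17405770, minus strand): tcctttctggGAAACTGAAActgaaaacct

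Counted from the RefSeq start, with the first transcribed base as position 1, the element spanned positions -127 to -118 in GBP1, 3 to 12 in GBP3 and -4 to 6 in GBP4. In these 3 genes, which lie on the minus strand of chromosome 1, it was read on the strand opposite to the gene. In GENCODE release 44 the printed ISRE lay in an exon of at least 1 transcript in GBP1, GBP3, MX1 and IFITM1, in an intron in IFITM3, across the gene's 5′ end in GBP4 and upstream of the gene in BST2. The windows of GBP1 and GBP3 were identical in 25 of 30 bases and those of IFITM1 and IFITM3 in 24 of 30, counting the motif itself. IFITM1, IFITM3 and BST2 each held 2 matches, which overlapped each other in BST2, and MX1 held 1 at 2 of its 3 RefSeq starts. The GAS, taken as TTC, any 3 bases and GAA on either strand, overlapped an ISRE in IFITM1, BST2 and MX1 and was found in 4 of the 7 members (GBP3, IFITM1, BST2 and MX1), against 9.38% of genes. The motif of NF-κB, the factor family that Smac mimetics are known to activate, was found in GBP4, IFITM3, BST2 and MX1, 4 of 7 against 13.3% of genes. In the hand-written list of other interferon-stimulated genes, 37 of 54 genes with a promoter (68.5%) held the ISRE letters, 24.1% the GAS letters and 16.7% the NF-κB motif. These matches describe the sequence alone. The 250 bases before the start of GBP4, the member with the largest fold change, are given on the gene's own strand, with the NF-κB motif and the part of the ISRE that precedes the start in capitals.
GBP4 (chr1:89198943-89199192, minus strand): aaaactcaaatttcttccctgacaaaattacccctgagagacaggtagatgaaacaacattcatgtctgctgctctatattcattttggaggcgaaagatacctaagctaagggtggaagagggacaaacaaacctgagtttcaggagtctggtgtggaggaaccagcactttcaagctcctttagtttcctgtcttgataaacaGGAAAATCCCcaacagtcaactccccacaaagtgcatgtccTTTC

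Each sample held between 54070030 and 77220882 counts, and 23124 genes passed the filter on low counts, all 10 members among them. These totals exceed the number of reads per library in the study's methods. Whether both reads of a read pair were counted is not stated. If they were, small counts rest on fewer fragments than they show. Levels are given as CPM, counts scaled to the normalized library size, in which 3 counts correspond to 0.0389 to 0.0557 CPM depending on the sample. The median log2 fold change of all genes tested was -0.01. Of 12 markers of this tumor line 10 were tested and none was called. The markers not tested were TFAP2B, with 1 to 6 counts per sample, and CDH3, with 3 to 15. The muscle regulator MYOD1 was at 344 ± 86.9 CPM (SD, n = 4) untreated and 251 ± 89.6 CPM (SD, n = 3) with BV6. The summed level of these 12 markers ranged from 2182 to 3191 CPM untreated and from 1468 to 2474 CPM with BV6. Of 16 markers of blood, endothelial, epithelial and connective tissue cells 10 were tested and none was called, and their sum ranged from 70.2 to 91.8 CPM and from 43.2 to 70.9 CPM. Most of that sum came from PECAM1, NKG7 and COL1A1. In RNA of whole cultures, a change of the RNA per cell and a change in the share of cells that make it cannot be told apart. The sources call the samples biological replicates without describing separate cultures, so p-values measure the spread between these samples.

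With BV6, the level of GBP3 rose 1.87-fold and that of GBP4 4.86-fold, and these were the 2 members called higher at an adjusted p below 0.05 over all genes (edgeR quasi-likelihood test, Benjamini-Hochberg), against 91 of 23124 genes (0.394%). No member was called lower, against 0.0562% of genes. Of the 10 members 6 had a log2 fold change above 0 and 4 below 0, with a median of 0.30, and 6 (4 higher, 2 lower) had an unadjusted p below 0.05, as did 1939 of the 23124 genes tested. Every BV6 sample lay above every untreated sample for GBP3 and GBP4 (4.94% of genes tested), every BV6 sample lay below for IFITM1 and IFITM2 (3.89% of genes tested), and the groups overlapped for the other 6 members. GBP4 passed the filter only through the BV6 samples, so a difference was built into its being tested. MX1 and MX2 reached the filter level in 1 untreated sample each and also needed BV6 samples to pass. The calls were narrow ones: after leaving out any 1 of the 7 samples, neither GBP3 (adjusted p from 0.0813 to 0.171) nor GBP4 (0.0859 to 0.163) was called, while 36 to 80 genes were called higher in those fits. With the shared code as a block, only GBP3 of the 10 members was called higher, against 0.649% of genes, and none was called lower, against 0.294%. With DESeq2, both GBP3 (adjusted p = 1.88e-05) and GBP4 (adjusted p = 0.00205) were called, against 1.02% of genes called higher. In simulated counts, however, DESeq2 exceeded the nominal share of false calls, so its smaller p-values do not make the calls firmer.

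**Figure D1:**
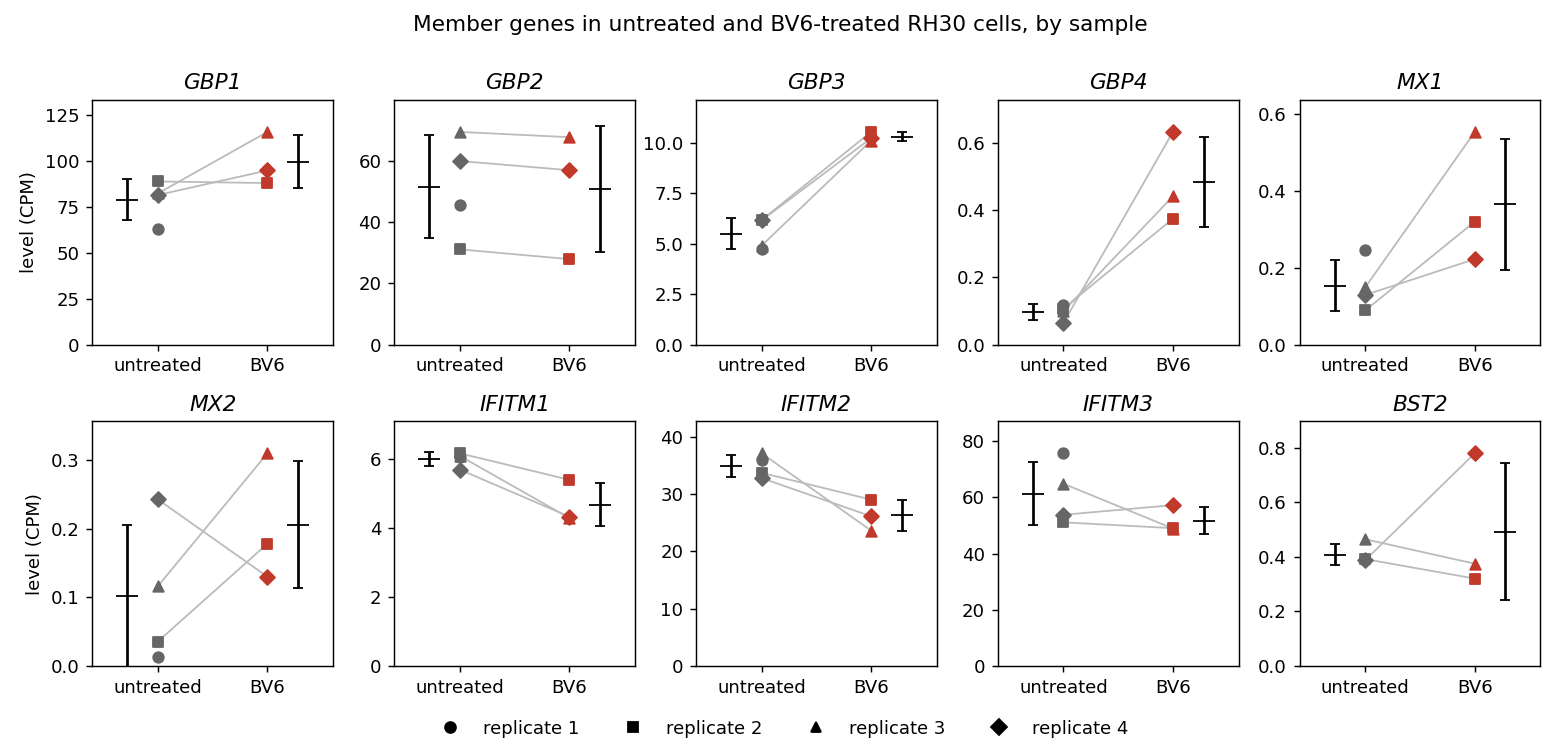
CPM of each member in every sample, untreated in gray and BV6 in red, with lines joining samples that share a title code and bars giving the mean and SD of 4 untreated and 3 BV6 samples (the lower bar of MX2 is cut at 0). The BV6 samples of GBP3 and GBP4 lie above all untreated samples, those of IFITM1 and IFITM2 lie below, and the panels have axes of their own.

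The guanylate-binding proteins are large GTPases that assemble on pathogen-containing membranes, and the 4 members of this family lie near each other on the minus strand of chromosome 1. In GRCh38 with GENCODE release 44 they span chr1:89006679-89022894 (GBP3), chr1:89051882-89065360 (GBP1), chr1:89106132-89150456 (GBP2) and chr1:89181144-89198942 (GBP4). They differed widely in level and in what was seen with BV6.

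GBP3 codes for a family member with reported antiviral activity. It stood at 4.74, 6.16, 4.89 and 6.14 CPM in untreated replicates 1 to 4 and at 10.5, 10.1 and 10.2 CPM in BV6 replicates 2 to 4, from 295 to 380 and from 550 to 619 counts. The BV6 samples lay close together, and the lowest of them was well above the highest untreated sample. The mean rose from 5.49 ± 0.775 (SD, n = 4) to 10.3 ± 0.222 CPM (SD, n = 3). This was a log2 fold change of 0.91 (SE 0.154, 95% interval 0.56 to 1.25, adjusted p = 0.0432, edgeR). Within the 3 pairs the ratios of BV6 to untreated were 1.71, 2.06 and 1.66. The blocked fit gave 0.85 with an adjusted p of 0.0441.

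GBP4 was close to the detection floor in untreated cells. Its counts were 9, 6, 6 and 4 in the untreated samples and 21, 27 and 34 in the BV6 samples, or 0.117, 0.107, 0.0996 and 0.0647 CPM against 0.374, 0.440 and 0.631 CPM. All BV6 samples were above all untreated samples, and the group mean went from 0.0970 ± 0.0227 (SD, n = 4) to 0.482 ± 0.134 CPM (SD, n = 3). The log2 fold change of 2.28 (SE 0.381, 95% interval 1.43 to 3.13, adjusted p = 0.0391, edgeR) was the largest of the 10 members, and as a fold its interval ran from 2.69 to 8.78. The call was lost with the block, at a log2 fold change of 2.37 and an adjusted p of 0.0866, and with limma-voom, at an adjusted p of 0.0511. The ratios within the pairs were 3.50, 4.42 and 9.76. Even with BV6 GBP4 stayed below 1 CPM.

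GBP1, the family member with the highest level here, had 4847 to 5030 counts in the untreated and 4932 to 7091 in the BV6 samples. Its level was 62.9, 88.7, 82.2 and 81.3 CPM untreated and 87.8, 116 and 94.7 CPM with BV6. The groups overlapped by 1 sample on each side, since untreated replicate 2 lay above BV6 replicate 2. The means were 78.8 ± 11.1 (SD, n = 4) and 99.4 ± 14.5 CPM (SD, n = 3), and the log2 fold change of 0.34 (SE 0.144, 95% interval 0.01 to 0.66) did not pass the test (adjusted p = 0.582, edgeR). Within the pairs the ratio was 0.990, 1.41 and 1.16.

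The level of GBP2 spread widely within both groups. It was 45.7, 31.1, 69.4 and 59.9 CPM untreated and 27.9, 67.7 and 56.9 CPM with BV6. Each BV6 sample lay slightly below the untreated sample of its own pair, with ratios of 0.898, 0.975 and 0.950, whereas the groups as a whole overlapped. Its log2 fold change was -0.02 (SE 0.323, adjusted p = 0.992, edgeR), and its interval, 0.597-fold to 1.63-fold, did not exclude changes of the size estimated for GBP1. This interval also stopped short of the 1.87-fold of GBP3. With the block the SE fell to 0.0911 and the interval to 0.812-fold to 1.09-fold (adjusted p = 0.769, edgeR). The blocked interval did not reach the blocked estimates of GBP1 (1.18-fold) and GBP3 (1.80-fold). Whether the members differ from each other in their change was not tested.

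**Figure D2:**
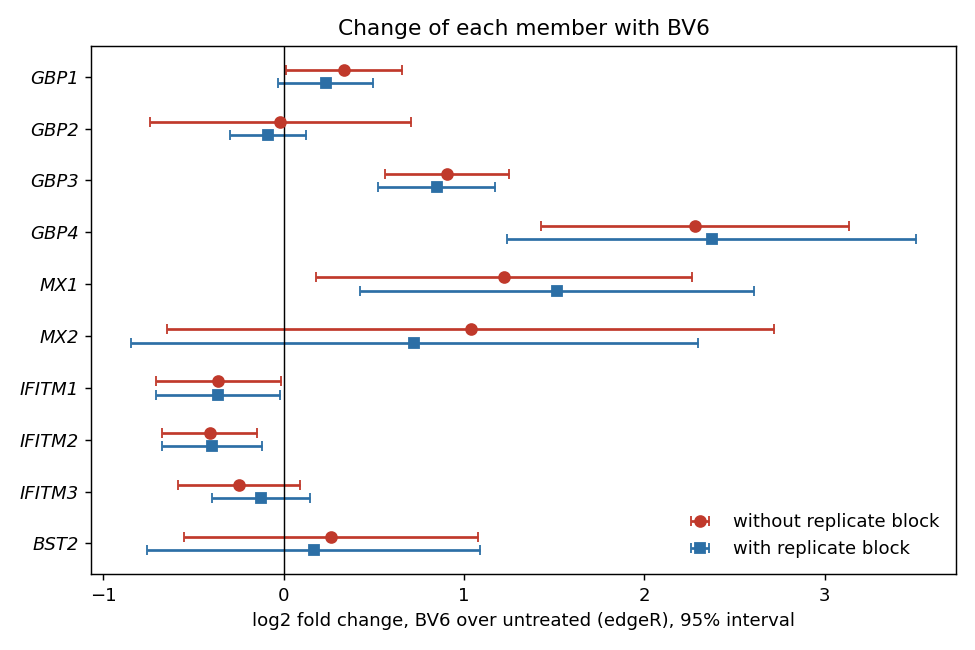
Log2 fold change of each member, BV6 over untreated, with 95% intervals from edgeR, without the block of title codes (red circles) and with it (blue squares). The intervals of GBP3 and GBP4 lie farthest above 0, those of IFITM1 and IFITM2 lie below 0, and the interval of GBP2 narrows most with the block.

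MX1 and MX2 code for dynamin-like GTPases that block viruses after entry, MX1 in the cytoplasm against influenza and other viruses and MX2 at the nuclear envelope against HIV. They lie next to each other on the plus strand at chr21:41420020-41470071 and chr21:41361999-41409393. Both were barely transcribed in RH30 cells, with at most 34 counts in any sample.

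MX1 had 19, 5, 9 and 8 counts untreated and 18, 34 and 12 with BV6, or 0.247, 0.0891, 0.149 and 0.129 CPM against 0.321, 0.554 and 0.223 CPM. The groups overlapped only because untreated replicate 1, which has no partner, lay above BV6 replicate 4. The log2 fold change was 1.22 (SE 0.464, 95% interval 0.18 to 2.26, adjusted p = 0.515, edgeR), and the blocked fit gave 1.52 with an adjusted p of 0.261. Within each of the 3 pairs the BV6 sample was higher, by 3.60-fold, 3.71-fold and 1.72-fold.

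MX2 had 1, 2, 7 and 15 counts untreated and 10, 19 and 7 with BV6, with untreated replicates 1 and 2 below 3 counts. Its level spanned 0.0130 to 0.243 CPM untreated and 0.130 to 0.310 CPM with BV6, and the groups overlapped. The log2 fold change of 1.04 had an SE of 0.751 and an adjusted p of 0.756 (edgeR), and in 1 of 3 pairs the BV6 sample was lower, at a ratio of 0.536. The 95% interval of the log2 fold change, from -0.65 to 2.72, leaves the direction undetermined.

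The IFITM genes code for small membrane proteins that hinder the fusion of virus and host membranes, IFITM1 mostly at the cell surface and IFITM2 and IFITM3 in endosomes. They lie together at chr11:310041-315272 (IFITM1, plus strand), chr11:303655-309397 (IFITM2, plus strand) and chr11:319676-329475 (IFITM3, minus strand). The log2 fold changes of all 3 were below 0 with TMM, with RLE size factors and with DESeq2, and none was called.

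IFITM1 was at 6.06, 6.16, 6.09 and 5.69 CPM untreated and at 5.40, 4.29 and 4.33 CPM with BV6. The untreated samples were within a narrow range, and all BV6 samples were below it. Its log2 fold change was -0.36 (SE 0.154, 95% interval -0.71 to -0.02, adjusted p = 0.577, edgeR), and the ratios within pairs were 0.875, 0.704 and 0.760.

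IFITM2 was at 35.9, 33.7, 37.1 and 32.8 CPM untreated and at 29.0, 23.6 and 26.1 CPM with BV6, again with no overlap between the groups. Its log2 fold change of -0.41 (SE 0.118, 95% interval -0.67 to -0.15) had the smallest unadjusted p of the members that were not called, 0.00639, and an adjusted p of 0.283 (edgeR). Over the alternatives the adjusted p ranged from 0.0724 to 0.636. The ratios within pairs were 0.861, 0.637 and 0.796.

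IFITM3 was at 75.7, 51.1, 64.9 and 53.8 CPM untreated and at 49.1, 48.9 and 57.3 CPM with BV6. The groups overlapped, and in 1 of 3 pairs the BV6 sample was the higher one, with ratios of 0.960, 0.754 and 1.06. The log2 fold change was -0.25 (SE 0.152, 95% interval -0.59 to 0.09, adjusted p = 0.721, edgeR).

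The IFITM genes resemble each other, and reads can be split between them. Of all 50-base stretches in their GENCODE transcripts, 870 of 2488 in IFITM1, 21.7% of those of IFITM2 and 30.8% of those of IFITM3 also occurred in another gene, against 4.78% for GBP3, 6.52% for GBP4 and none of 1099 for BST2. The study sequenced read pairs, and the other read of a pair can place a shared stretch. These shares of single stretches are therefore not shares of ambiguous read pairs. Part of this sharing was with overlapping genes. IFITM1 shared 391 stretches with IFITM3, 312 with IFITM2 and 314 with an overlapping gene on its own strand. IFITM3 shared 266 with IFITM2, and 271 and 204 with overlapping noncoding genes on the other strand. The sums below do not include these overlapping genes. GBP1 shared 171 such stretches with GBP3 and 332 with the pseudogene GBP1P1, with which GBP3 shared 83. GBP1P1 is not part of the sums below either. How the counting treated reads that match more than 1 gene is not given in the sources used here. For this reason the counts were also summed before the fit. IFITM1, IFITM2 and IFITM3 together had a log2 fold change of -0.31 (SE 0.121, adjusted p = 0.552, edgeR), and GBP1 and GBP3 together 0.38 (SE 0.139, adjusted p = 0.487, edgeR). The latter sum consists mostly of GBP1, with 4847 to 7091 counts against 295 to 619 for GBP3. It therefore follows GBP1 and cannot decide whether split reads bear on the call of GBP3. GBP2 also shares 621 exonic bases, 8.60% of its own, with GBP7 on the same strand, and MX1 shares 562 with TMPRSS2 on the other strand, where TMPRSS2 had at most 8 counts. Whether the counting used the strand is not stated.

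BST2, at chr19:17402939-17405630 on the minus strand, codes for tetherin, which also activates NF-κB in human cells. It had 30, 22, 28 and 24 counts untreated and 18, 23 and 42 with BV6, or 0.389, 0.392, 0.465 and 0.388 CPM against 0.321, 0.375 and 0.780 CPM. In the BV6 group 2 samples lay below all untreated samples and 1 lay above them. For BST2 the log2 fold change was 0.26 (SE 0.362, adjusted p = 0.865, edgeR), and without BV6 replicate 4 it was -0.23. The interval of the fold, from 0.683 to 2.11, leaves the direction undetermined.

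Compared per length, as CPM per kilobase of the exonic bases in GENCODE release 44, the members spanned more than 3 orders of magnitude in untreated cells. IFITM2 (21.7) and IFITM3 (21.6) were highest, with overlapping ranges, followed by GBP1 (12.9), GBP2 (7.13), IFITM1 (3.60), GBP3 (1.28) and BST2 (0.371), whose ranges did not overlap their neighbors'. GBP4 (0.0158), MX1 (0.00854) and MX2 (0.00699) were lowest, and their ranges overlapped. With BV6 the means were 18.2 for IFITM3, 16.4 for IFITM2 and 16.3 for GBP1, and the other 7 members kept their places in the order. By the length of the canonical transcript in place of all exonic bases, IFITM3 (100.5) stood above IFITM2 (34.7), and GBP4 (0.0158) fell below MX1 (0.0553) and MX2 (0.0299). The top and the bottom of the order therefore depended on which length was used.

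**Figure D3:**
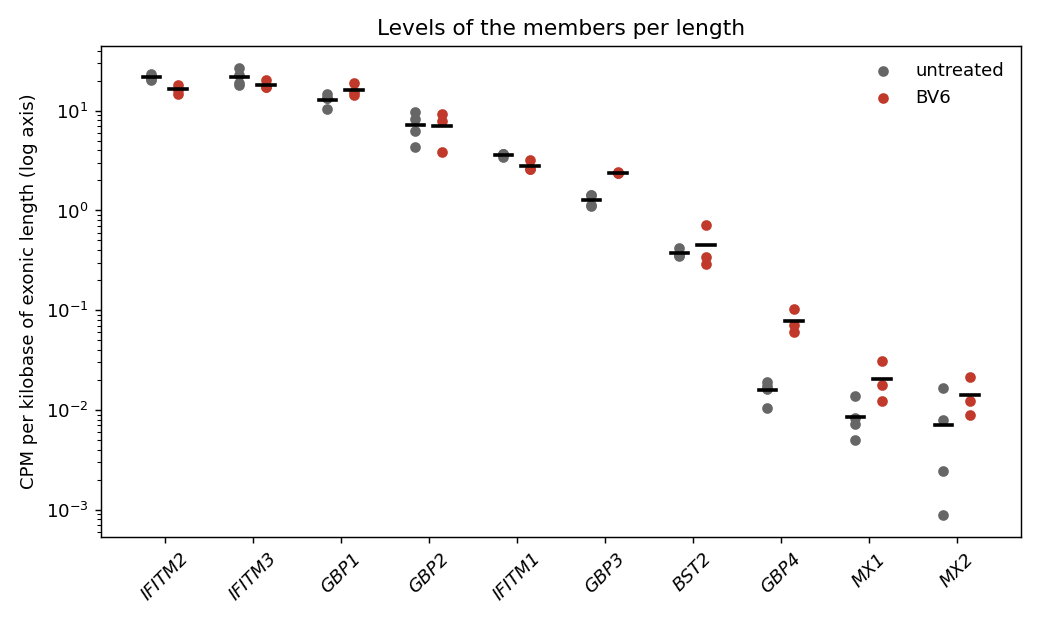
CPM per kilobase of exonic length of each member on a log axis, 1 point per sample, untreated in gray and BV6 in red, with bars at the group means. IFITM2, IFITM3 and GBP1 lie at the top, between 10.3 and 26.6, and GBP4, MX1 and MX2 at the bottom.

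The nearest relatives of the members were read from the same fit. Of 13 related genes (other guanylate-binding proteins, IRGM, IFITM5, IFITM10, atlastins and dynamins) 10 were tested, none was called in either direction, and their median log2 fold change was 0.07. GBP5, a guanylate-binding protein known for its part in inflammasome activation, had 12, 2, 7 and 2 counts untreated and 26, 52 and 36 with BV6. All BV6 samples of GBP5 were above all untreated ones, at a log2 fold change of 2.88 (SE 0.509), with an adjusted p of 0.0522 without and 0.0228 with the block (edgeR). Like GBP4, GBP5 passed the filter on low counts only through the BV6 samples, so it was tested only because it was high there. GBP7 had 12 to 16 counts untreated and 11, 33 and 20 with BV6. GBP4 and GBP5 had the largest fold changes of the tested guanylate-binding proteins, at low counts, while GBP1 and GBP2 stood above them in level.

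Of 25 genes of interferon signaling 18 were tested, 1 was called higher and none lower, against 0.394% and 0.0562% of all genes tested. The median log2 fold change was 0.25 (15 above 0, 3 below). The gene called was IRF1, a transcription factor that binds ISRE-like sites and whose own gene responds to NF-κB, with a log2 fold change of 1.07 (SE 0.186, adjusted p = 0.0478, edgeR). IRF2, a related factor, had a log2 fold change of 0.88 (adjusted p = 0.0722), with all BV6 samples above the untreated ones. Smaller log2 fold changes were found for 2 parts of the ISRE-binding complex, with 0.32 for STAT2 (adjusted p = 0.689) and 0.03 for IRF9 (adjusted p = 0.965). IFNB1, the gene of interferon beta, had 0 counts in all 7 samples, each of which allows up to 3 counts. IFNG had at most 3 and IFNA1 at most 10 counts in any sample.

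The other interferon-stimulated genes on the hand-written list gave 59 tested, 10 called higher and none lower, with a median log2 fold change of 0.50 (56 above 0, 3 below). The called genes included the RNA sensors IFIH1 (log2 fold change 4.02) and DDX58 (1.40), the antiviral enzyme RSAD2 (3.59) and IFIT3 (2.88). Also among them were the apolipoprotein L genes APOL6 (1.50) and APOL1 (1.23), the ADP-ribosyltransferase PARP14 (0.93) and the tryptophanyl-tRNA synthetase WARS (0.89). With the block 15 were called higher. RSAD2 (7, 4, 6 and 13 counts untreated) and IFIH1 (9, 13, 10 and 21 counts untreated) also needed BV6 samples to pass the filter on low counts. In the list of NF-κB feedback genes 6 of 10 were called higher and none lower, with a median of 1.39, among them BIRC3, which codes for cIAP2 (4.86), the chemokine gene CCL5 (4.72), the adapter TRAF1 (3.58), NFKBIA (2.17), which codes for the NF-κB inhibitor IκBα, the subunit gene NFKB2 (1.67) and the inhibitor TNFAIP3 (0.86). CCL5 too passed the filter only through the BV6 samples. With the block 8 of these 10 were called higher. Beside these medians stand 0.30 for the 10 members and -0.01 for all genes tested. Of all genes tested 0.394% were called higher and 0.0562% lower, and with the block 0.649% and 0.294%. The lists were written with results of these data known, and no test was made between them.

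**Figure D4:**
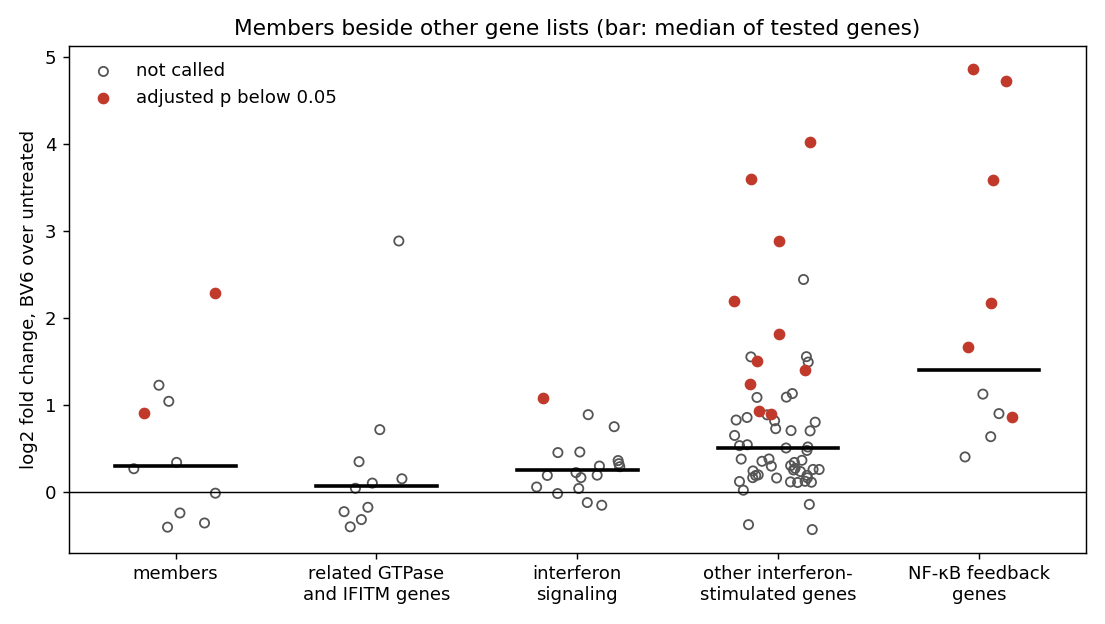
Log2 fold change, BV6 over untreated, of each tested gene in the members' list and in 4 other lists, with filled red points for genes at an adjusted p below 0.05 and bars at the medians. The medians are 0.30 for the members, 0.07 for related genes, 0.25 for interferon signaling, 0.50 for other interferon-stimulated genes and 1.39 for NF-κB feedback genes.

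The genes most like the members called were found from the centered log2 CPM profile over the 7 samples, averaged over GBP3 and GBP4. The pseudocount of 0.5 CPM lay above both group means of GBP4 (0.0970 and 0.482 CPM) and shrank its change in this profile. The nearest genes had log2 fold changes from 0.72 to 1.04, near the 0.91 of GBP3 and below the 2.28 of GBP4. Among genes at 1 CPM or more the 5 nearest were AC034102.1, RAB13, USP31, UBA7 and FAM155A, with root mean squared differences of 0.0615, 0.0853, 0.0854, 0.0866 and 0.0890 on the log2 scale. UBA7, which codes for the enzyme that activates the ubiquitin-like protein ISG15, stood at 4.71 CPM untreated and 9.23 CPM with BV6 (log2 fold change 0.97, adjusted p = 0.0232, edgeR). These genes were picked for their likeness over the same samples, so their fold changes describe the choice.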

How the data were processed

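The authors sequenced stranded, poly(A)-selected libraries of RH30 RNA, of which 4 untreated samples and 3 samples with 5 µM BV6 for 24 h are analysed here. The authors deposited raw counts per gene, made after mapping to GRCh38 by counting over the combined isoforms of each gene. The submitters' processing notes name STAR 2.6.1d, and the handling of strand and of reads that match several genes is not given in the sources used here. Reads assigned to a paralog or to an overlapping gene can move a member's level.

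The quasi-likelihood test of edgeR 4.0.16 in R 4.3.3 was run on the deposited counts of all 7 samples, with TMM scaling, the condition as sole term and filterByExpr set to 10 counts, and p-values were adjusted by Benjamini-Hochberg over the 23124 genes tested, with a threshold of 0.05. The SE of a log2 fold change follows from its F statistic. CPM refers to the TMM-normalized library size. An exact two-sided permutation test of 4 against 3 samples cannot go below p = 0.0571, the value it gave for GBP3, GBP4, IFITM1 and IFITM2. The scripts were tested on simulated data, in which DESeq2 exceeded the nominal share of false calls, so it served as an alternative only. Alternatives were RLE size factors, 2 other filters, DESeq2 1.42.0, limma-voom (limma 3.58.1), the block and leaving out each sample.

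Samples were grouped by the treatment label and paired by the code in the titles, whose meaning is inferred. Deviations from the group means correlated within the pairs of replicates 2, 3 and 4 at 0.704, 0.434 and 0.244. With the unpaired untreated sample in the mean, these values were 0.638, 0.607 and 0.0570. Between samples without a shared code the correlations ran from -0.482 to 0.212, or from -0.619 to 0.439 with that sample. The pairs of replicates 2 and 3 lay above these ranges. The pair of replicate 4 lay just above the former and inside the latter, so these values do not set it apart. Among the members, the text gives the blocked value where it changed a call (GBP4), and also for GBP1, GBP2, GBP3 and MX1. For single genes of the other lists it is given for GBP5 only, although the block changed calls of others.

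The members and lists were chosen with earlier results of these data known. Named genes are all 10 members, of each other list those called (up to 8 by smallest p) or whose level the members' results need, and the 5 nearest profiles, taken on log2 CPM with a pseudocount of 0.5. Coordinates, lengths and 50-base sharing come from GENCODE release 44. The 95% intervals come from the edgeR fit and include the spread between samples. Floors of 3 counts cover counting error only, and only if each count is a separate fragment, which the sources do not state. Samples not listed here were not used.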

Additional observations from a re-analysis of the deposited data

Results flagged for a closer look

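BST2 was set apart by 1 sample. Untreated replicate 3 was at 0.465 CPM (28 counts), whereas the other 3 untreated samples lay between 0.388 and 0.392 CPM. The gap was 0.950 of the whole range of the group, above the 95% critical value of Dixon's test for 4 samples. It rests on how close together the other 3 samples lay, at 30, 22 and 24 counts. Whether it exceeds the counting error of such small counts was not tested. Chance alone gives such a gap in about 1 of 20 groups, and the untreated levels of all 10 members were examined in this way.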

How the results depend on the processing

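In 126 refits of single members, 106 kept the direction and the side of the threshold, 16 lost a call in the same direction and 4 changed direction. GBP2 turned to 0.16 without untreated replicate 3, to 0.06 without untreated replicate 4 and to 0.28 without BV6 replicate 2, and BST2 to -0.23 without BV6 replicate 4 (log2 fold changes, none called), with ranges of -0.28 to 0.28 for GBP2 and -0.23 to 0.50 for BST2 over the fits without 1 sample. Genes called higher and lower were 91 and 13 in the report, 169 and 73 with no filter, 245 and 163 with DESeq2, 150 and 68 with the replicate block, 90 and 15 with RLE size factors, and from 36 to 80 and from 2 to 10 without 1 sample. Members called higher went from 2 to 1 with at least 10 counts in every sample, where GBP4 was not tested, to 1 with limma-voom and to 1 with the replicate block, where GBP4 had a log2 fold change of 2.37, and from 0 to 0 without 1 sample. The block changed no other call of a member. In the fits without 1 sample the log2 fold change ranged from 0.85 to 0.97 for GBP3 and from 2.04 to 2.44 for GBP4. The cause of these losses was not tested. MX2 was not tested without untreated replicate 4. The summed IFITM genes and the summed GBP1 and GBP3 were in 1 direction and not called in all 13 alternatives. GBP4, MX1, MX2 and BST2 rest on at most 42 counts in any sample.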
